A study of Mus musculus with 6 samples.

Results

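C1qa, C1qb, C1qc, Mrc1, Msr1, Ms4a7, Ms4a6d, Pf4, F13a1 and Fn1 are 10 macrophage-associated genes of the 54838 genes counted. They were chosen from these same libraries because several of them stood higher in knockout than in wild type, so their genotype difference is described here without a test. RNA was sequenced from neutrophils that had been purified by FACS from the corneas of mice infected for 24 h with PAO1, a widely used Pseudomonas aeruginosa strain. There were 3 libraries from Il1a-/- mice, which lack the gene of the cytokine IL-1 alpha, and 3 from wild-type (WT) mice, and both genotypes were infected. The labels number biological replicates, and they state neither how many mice stand behind a library nor the age of the mice, the sorting gate or the Il1a allele.

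These genes mark the macrophage branch of the myeloid lineage more than the neutrophil branch. C1qa, C1qb and C1qc encode the chains that assemble into C1q, the recognition molecule that starts the classical complement pathway, and tissue macrophages are a main source of it. Mrc1 encodes the mannose receptor and Msr1 the class A scavenger receptor, which take up glycoproteins, modified lipoproteins and microbes. Ms4a7 and Ms4a6d encode membrane proteins of a family of tetraspanning proteins. Pf4 encodes platelet factor 4, a CXC chemokine, and F13a1 the catalytic subunit of clotting factor XIII, which crosslinks fibrin; both are made by megakaryocytes and platelets as well as by macrophages. Fn1 encodes fibronectin, a matrix protein that fibroblasts and epithelial cells make too.

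The libraries held 22855676 to 32295293 gene counts in knockout and 25721159 to 33626008 in wild type. Il1a had 92, 174 and 118 counts in knockout replicates 1, 2 and 3, against 136694, 192428 and 272865 in wild-type replicates 1, 2 and 3, so each library carried the Il1a level of its label. Levels below are CPM, which are counts scaled to the normalized size of the library. Neutrophil markers dominated, with the 11 listed genes summing to 34420 to 38150 CPM in knockout and 35840 to 41370 CPM in wild type. On the first principal component of log2 CPM knockout replicate 2 lay far out, at 67.3, with the other knockout libraries at -19.6 and 2.1 and the wild-type libraries from -32.9 to -3.04 (32.1% of the variance). Mean ratios, the ratio of summed levels and pairwise correlations of the 10 genes are therefore given with and without knockout replicate 2. Sums, medians and gene values of the other lists include it.

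By GENCODE M21 (GRCm38) the C1q genes lie side by side on the minus strand of chromosome 4, C1qb at chr4:136880129-136886187, C1qc at chr4:136889804-136893065 and C1qa at chr4:136895917-136898803. They were at 0.786 to 8.29 CPM in knockout and 0.374 to 1.26 CPM in wild type. C1qb, the most abundant of them, had 2.11, 8.29 and 4.02 CPM in knockout replicates 1, 2 and 3 (67, 269 and 92 counts) against 0.973, 1.26 and 0.740 CPM in wild-type replicates 1, 2 and 3 (26, 39 and 23 counts). The genotypes did not overlap, but the lowest knockout library lay closer to the wild-type libraries than to knockout replicate 2. C1qa had 0.786, 2.96 and 1.75 CPM in knockout and 0.374, 0.612 and 0.450 CPM in wild type. Its wild-type values rest on 10, 19 and 14 counts, and the 95% counting interval of the highest of them, 0.368 to 0.955 CPM, covered knockout replicate 1. C1qc had 0.912, 3.95 and 3.32 CPM in knockout and 0.711, 0.998 and 0.515 CPM in wild type. Here the genotypes overlapped, since knockout replicate 1 lay below wild-type replicate 2. Mean levels of C1qa, C1qb and C1qc were 3.83, 4.86 and 3.68 times as high in knockout as in wild type, and 2.65, 3.10 and 2.85 times as high without knockout replicate 2.

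Msr1 (chr8:39581685-39642673, minus strand) had more counts than Mrc1 (chr2:14229392-14332057, plus strand). It had 5.31, 16.7 and 9.74 CPM in knockout (169, 541 and 223 counts) and 1.46, 3.09 and 3.80 CPM in wild type (39, 96 and 118 counts), with no overlap. Mrc1 had 0.314, 5.18 and 2.80 CPM in knockout (10, 168 and 64 counts) and 0.112, 0.322 and 0.804 CPM in wild type (3, 10 and 25 counts). Mrc1 overlapped: knockout replicate 1 was at 0.391 times the level of wild-type replicate 3, with a 95% counting interval from 0.168 to 0.843. It also had the widest spread, with knockout replicate 2 at 16.5 times knockout replicate 1 (interval 8.74 to 35.0).

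Ms4a6d (chr19:11586604-11604849) and Ms4a7 (chr19:11321039-11336146) both lie on the minus strand of chromosome 19. Ms4a6d had 2.26, 10.1 and 7.25 CPM in knockout and 1.53, 2.19 and 1.90 CPM in wild type. The groups were apart by a narrow margin, as knockout replicate 1 was at 1.03 times the highest wild-type library (interval 0.732 to 1.46). Ms4a7 had the lowest mean CPM of the 10 genes in both genotypes, at 0.472, 1.26 and 0.699 CPM in knockout (15, 41 and 16 counts) and 0.15, 0.322 and 0.322 CPM in wild type (4, 10 and 10 counts). With so few counts the interval of knockout replicate 1, 0.264 to 0.778 CPM, covered both of the higher wild-type values.

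Pf4 (chr5:90772435-90773383, plus strand), F13a1 (chr13:36867178-37050244, minus) and Fn1 (chr1:71585520-71653200, minus) encode proteins that act outside the cell. Pf4 had 4.24, 12.2 and 9.96 CPM in knockout and 3.03, 2.90 and 1.96 CPM in wild type, with no overlap and the smallest range among the wild-type libraries of the 4 genes above 2 CPM there. F13a1 had 8.43, 30.2 and 12.3 CPM in knockout (268, 978 and 282 counts) and 4.23, 6.37 and 3.25 CPM in wild type (113, 198 and 101 counts), also with no overlap. Fn1 was the gene with most counts, at 8.83, 41.7 and 25.6 CPM in knockout (281, 1352 and 586 counts) and 3.26, 4.57 and 8.07 CPM in wild type (87, 142 and 251 counts). For Fn1, knockout replicate 1 and wild-type replicate 3 were close, at a ratio of 1.09 (interval 0.920 to 1.30). Per kilobase of annotated exon the order of the genes changes: Pf4, a short transcript, was highest with a mean level of 12.2 CPM per kilobase in knockout and 3.65 in wild type. Fn1 came to 2.17 CPM per kilobase in knockout and 0.454 in wild type. Ms4a7 was lowest in both genotypes, at 0.182 CPM per kilobase in knockout and 0.0594 in wild type.

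**Figure D1:**
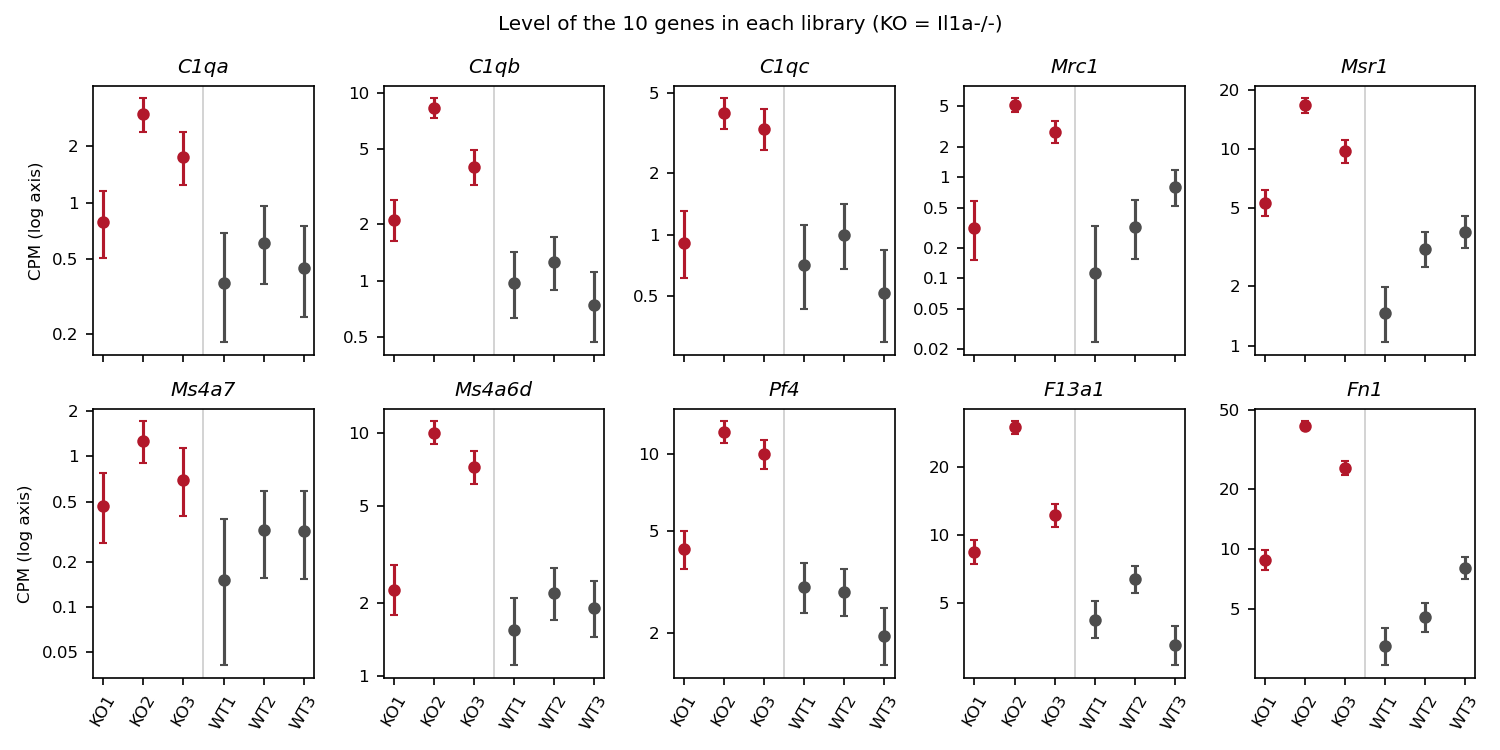
CPM (log axis) of each gene in the 3 Il1a-/- libraries (KO1 to KO3, red) and the 3 wild-type libraries (WT1 to WT3, grey), with bars for the 95% exact counting interval. In every panel KO2 is highest and KO1 is lowest of the knockout libraries. KO1 lies among the wild-type values for C1qc and Mrc1. For the other genes it lies above them, at most at 1.68 times the highest wild-type library (C1qb).

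Together the 10 genes gave 33.7, 132 and 77.4 CPM in knockout replicates 1, 2 and 3, and 15.8, 22.6 and 21.8 CPM in wild-type replicates 1, 2 and 3. The means were 81.2 ± 49.5 CPM in knockout and 20.1 ± 3.7 CPM in wild type (SD, n = 3 each), a log2 ratio of 2.01, or 1.46 without knockout replicate 2. Gene by gene, the mean was 3.07 (Ms4a7) to 6.7 (Mrc1) times as high in knockout as in wild type, and 2.21 (Ms4a7) to 3.77 (Mrc1) times without knockout replicate 2. All of this is a small part of the RNA: the 10 genes took 0.00354% to 0.0133% of the counts of a knockout library and 0.00165% to 0.00221% of those of a wild-type library. All 10 passed the filter on low counts. Their log2 fold changes in edgeR's quasi-likelihood fit ran from 1.60 for Ms4a7 to 2.72 for Mrc1 with a median of 1.90, beside a median of 0.0045 over 11924 tested genes. In that fit 0 of the 10 were called at an adjusted p under 0.05, where 0.101% of all tested genes were, and all 10 had an unadjusted p under 0.05, as had 5.99% of all tested genes. DESeq2 called 5 of the 10 (C1qb, Pf4, F13a1, Msr1 and Ms4a6d) and 0.579% of all tested genes. Without the filter edgeR called 8 of the 10, all but C1qa and Ms4a7, and 0.766% of all genes. It called 2 with a replicate block, F13a1 and Msr1 (0.168% of all), and 3 without knockout replicate 1, Pf4, Ms4a6d and Fn1 (0.19% of all). Every knockout library was above every wild-type library for 8 of the 10, against 6.12% of all tested genes. Because the genes were picked from this contrast, these counts describe the choice and nothing is read from them. In bulk RNA, more cells of a type and more RNA per cell cannot be told apart.

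Within the knockout the 10 genes ranked the libraries in one order. Knockout replicate 2 was above replicate 3 and replicate 3 above replicate 1 in 10 of 10 genes, an order found for 18.1% of all tested genes. Among the 458 tested genes with a log2 fold change of at least 1, as these 10 have, it was found for 36.5%. Knockout replicate 2 was the highest of all 6 libraries for each of the 10, and a choice by high knockout level favours such genes. The sizes differed from gene to gene. Knockout replicate 2 was at 2.68 (Ms4a7) to 16.5 (Mrc1) times replicate 1, with a median of 3.85, and the 95% counting interval lay above 1 for all 10. Knockout replicate 3 was at 1.46 (F13a1) to 8.89 (Mrc1) times replicate 1, and the interval lay above 1 for 9 genes, all but Ms4a7. Knockout replicate 2 exceeded replicate 3 beyond counting error for 8 genes, with C1qc at 1.19 (interval 0.888 to 1.60) and Ms4a7 at 1.81 (0.994 to 3.45) as the exceptions. Intervals cover counting error alone and treat each read as independent. No molecule tags are stated, so several reads may be copies of 1 molecule and the intervals may be too narrow.

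Knockout replicate 1 was the library in which the 10 genes came closest to wild type. Its level was above that of the highest wild-type library beyond counting error for 4 genes: C1qb (ratio 1.68, interval 1.11 to 2.56), Pf4 (1.40, 1.06 to 1.87), F13a1 (1.32, 1.10 to 1.60) and Msr1 (1.40, 1.10 to 1.79). For 5 genes the interval spanned 1, and for Mrc1 it lay below.

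The wild-type libraries did not share one order. Mrc1, Msr1 and Fn1 were highest in wild-type replicate 3 and lowest in replicate 1. Fn1 in replicate 3 was at 2.48 times replicate 1 (95% counting interval 1.94 to 3.20) and Msr1 at 2.60 times (1.80 to 3.84). By contrast Pf4 in wild-type replicate 3 was at 0.647 times replicate 1 (0.456 to 0.914), and F13a1 at 0.510 times replicate 2 (0.397 to 0.651). C1qb, C1qc, Pf4 and F13a1 were lowest in replicate 3, where Mrc1, Msr1 and Fn1 were highest. For C1qb, however, every interval between wild-type libraries spanned 1. C1qc differed beyond counting error only between replicates 3 and 2, at a ratio of 0.516 (0.263 to 0.972). C1qa, Ms4a7 and Ms4a6d were highest in replicate 2 and lowest in replicate 1, and for each of them too every interval between wild-type libraries spanned 1. Ms4a7 had 10 counts in both replicates 2 and 3.

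**Figure D2:**
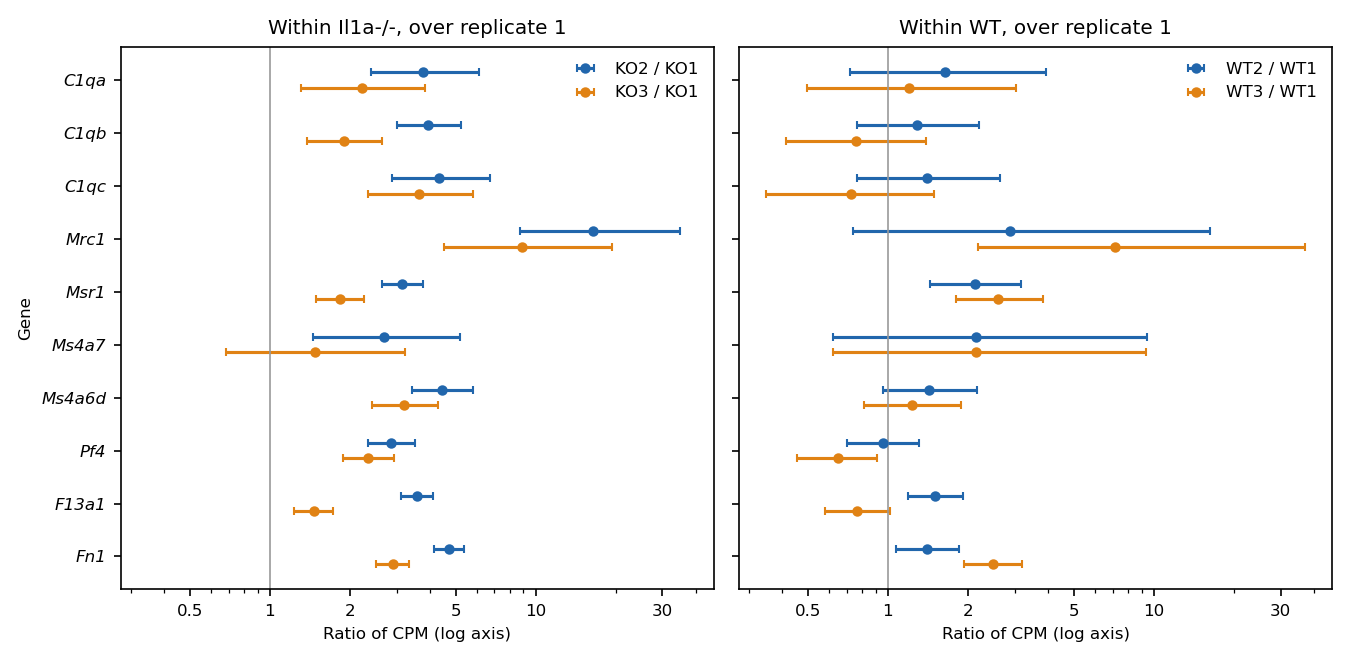
Ratio of CPM (log axis) of replicates 2 and 3 over replicate 1 within Il1a-/- (left) and within wild type (right) for each gene, with bars for the 95% exact counting interval. Within the knockout all points lie right of 1, while within wild type Mrc1, Msr1 and Fn1 lie right of 1 for replicate 3, and C1qb, C1qc, Pf4 and F13a1 lie left of it. Among these last genes only Pf4 has its whole bar left of 1.

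The same split shows in pairwise correlations. Over the 6 libraries, with each genotype's mean log2 CPM subtracted, Pearson's r between 2 of the 10 genes ranged from 0.486 (Pf4 and Msr1) to 0.995 (Mrc1 and Fn1), with a median of 0.855 over 45 pairs. Without knockout replicate 2 the median was 0.739 and the lowest value 0.083, for F13a1 and Fn1, while Mrc1 and Fn1 stayed at 0.995 and C1qb and C1qc were at 0.978. These values are a description over 6 or 5 libraries. The points share library size and normalization, and knockout replicate 2 carries much of the spread.

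The proportions among the genes can be compared apart from their level. C1qa made up 20.7%, 19.5% and 19.2% of the counts of the C1q genes in knockout replicates 1, 2 and 3, and 18.2%, 21.3% and 26.4% in wild-type replicates 1, 2 and 3, with overlapping 95% Wilson intervals (14.4% to 28.7% in knockout replicate 1 and 16.4% to 39.6% in wild-type replicate 3). C1qb made up 55.4%, 54.6% and 44.2% in knockout and 47.3%, 43.8% and 43.4% in wild type. So C1qb was the largest part in each library, with an interval of 50.2% to 58.9% in knockout replicate 2 and 30.9% to 56.7% in wild-type replicate 3. Of the counts of all 10 genes, Fn1 took 26.2%, 31.5% and 33.1% in knockout and 20.6%, 20.2% and 37.0% in wild type. The share of Fn1 in wild-type replicate 3 (interval 33.5% to 40.7%) lay above that of wild-type replicates 1 (17.0% to 24.7%) and 2 (17.4% to 23.3%). Mrc1 took 0.934%, 3.91% and 3.61% in knockout and 0.709%, 1.42% and 3.69% in wild type. Its share in wild-type replicate 3 was thus near that in knockout replicates 2 and 3, although its level was 0.804 CPM there.

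**Figure D3:**
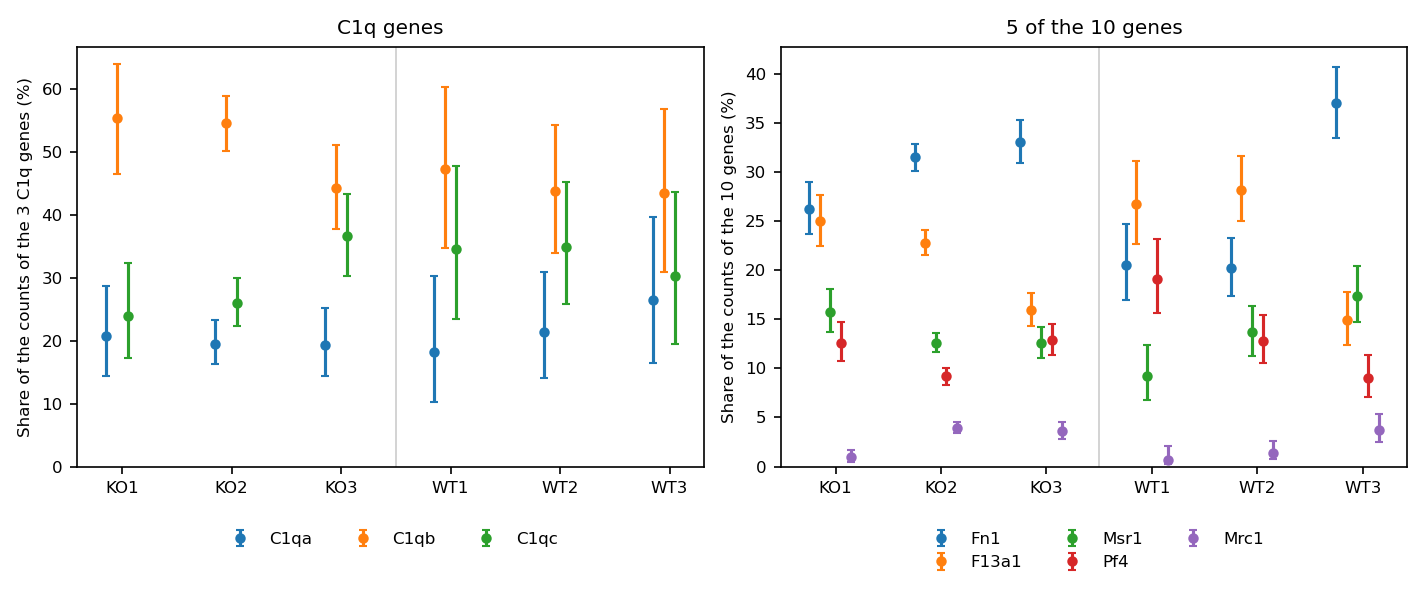
Left, share (%) of C1qa, C1qb and C1qc in the summed counts of the C1q genes; right, share (%) of Fn1, F13a1, Msr1, Pf4 and Mrc1 in the summed counts of the 10 genes, per library, with 95% Wilson intervals. C1qb is the largest C1q part in each library, and the shares of Fn1 and Mrc1 in WT3 (37.0% and 3.69%) stand above those in WT1 and WT2.

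Transcripts of other corneal cells varied between libraries as well. The summed level of 7 markers of stromal keratocytes and fibroblasts was 12.4, 41.8 and 20.1 CPM in knockout replicates 1, 2 and 3, against 19.5, 21.1 and 36.7 CPM in wild-type replicates 1, 2 and 3. That is the order of Fn1, Mrc1 and Msr1 within both genotypes, although between genotypes these sums overlapped and the levels of Fn1 and Msr1 did not. Of the 6 tested stromal markers 5 had the knockout order of the 10 genes, 4 had a log2 fold change above 0, with a median of 0.18, and 0 were called. The collagen gene Col1a2 was at 0.754, 8.54 and 3.49 CPM in knockout and 2.55, 1.61 and 4.82 CPM in wild type, and Dcn, the decorin gene, at 5.75, 12.8 and 7.34 CPM in knockout and 7.07, 11.5 and 16.5 CPM in wild type. Kera, the keratocan gene of the corneal stroma, was the one without that order, at 0.0943, 0.278 and 0.306 CPM in knockout and 1.39, 0.773 and 0.386 CPM in wild type. The 8 epithelial markers summed to 49.5, 139 and 55.1 CPM in knockout and 54.5, 166 and 119 CPM in wild type, led by the keratin gene Krt14. Their order was replicate 2 over 3 over 1 in both genotypes, which is the order of all 10 genes in knockout and of C1qa, Ms4a7 and Ms4a6d in wild type. The part of stromal or epithelial RNA in the levels of the 10 genes was not tested. Endothelial markers gave 6.19, 3.55 and 0.568 CPM in knockout and 1.39, 6.41 and 0 CPM in wild type, and their knockout order was not that of the 10 genes. Of them Vwf, the von Willebrand factor gene, was at 1.32, 1.63 and 0.568 CPM in knockout and 0.187, 0.290 and 0 CPM in wild type, with no overlap (log2 fold change 2.86, SE 0.92, edgeR adjusted p = 0.61). Vwf was the only 1 of the 4 tested endothelial markers without overlap. Cdh5, Kdr and Emcn overlapped, with log2 fold changes of 0.119, 1.285 and -0.747.

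Pf4 and F13a1 are platelet genes too. A list of 10 platelet and megakaryocyte markers summed to 6.51, 41.8 and 14.7 CPM in knockout and 7.90, 34.0 and 10.1 CPM in wild type, in the same order as the epithelial markers. Its largest part in each library was Ppbp, the gene of another platelet chemokine, at 2.80, 38.7 and 10.7 CPM in knockout and 3.89, 31.3 and 6.92 CPM in wild type. In wild-type replicate 2, where Ppbp was at 31.3 CPM, Pf4 was at 0.956 times wild-type replicate 1 (interval 0.700 to 1.31) and F13a1 at 1.51 times (1.19 to 1.92). Of the 4 tested platelet genes 2, Ppbp and Tubb1, had the knockout order of the 10 genes. Tubb1 had 1.51, 2.13 and 2.05 CPM in knockout (48, 69 and 47 counts) and 1.91, 1.19 and 1.77 CPM in wild type (51, 37 and 55 counts). Clec1b had 0.82, 0.46 and 1.09 CPM in knockout (26, 15 and 25 counts) and 0.49, 0.39 and 1.09 CPM in wild type (13, 12 and 34 counts). Gp9 had 15, 3 and 2 counts in knockout and 20, 16 and 5 in wild type. Tubb1, Clec1b and Gp9 did not share one order of libraries. Among the untested platelet genes Gp1bb had 0 counts in all 6 libraries and Treml1 had 1 count in knockout replicate 3 and 0 elsewhere. Itga2b had 8, 2 and 8 counts in knockout and 15, 5 and 2 in wild type. The part of platelet RNA in Pf4 and F13a1 was not tested.

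Markers of lymphocytes and mast cells were low. Of the mast cell genes 3 of 7 had 0 counts in all 6 libraries, Cma1 among them, as had 7 of 10 T and NK cell genes, with Cd3e, Cd4, Cd8a and Ncr1, and 2 of 5 B cell genes, with Pax5. The mast cell list summed to 3.92 to 8.74 CPM in knockout and 8.43 to 10.3 CPM in wild type, nearly all of it Kit. The T and NK cell list summed to 0.692 to 1.40 CPM in knockout and 1.54 to 1.68 CPM in wild type, and the B cell list to 0.262 to 0.493 CPM in knockout and 0 to 0.161 CPM in wild type.

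Of 188 other genes on 17 lists of cell markers and pathways, 119 were tested and 0 were called in either direction by edgeR's quasi-likelihood test, where 21 had an unadjusted p under 0.05. DESeq2 called 3 of them, Ccr7 and Ms4a4a higher and Lyve1 lower in knockout, and edgeR without a filter called 10. The 25 other macrophage markers had a median log2 fold change of 0.15 over the 16 tested, 0 of which were called. Of the 16, 3 had the knockout order of the 10 genes, as had 18.1% of all tested genes. Among the untested markers Mertk, Trem2 and Cd163 had that order too, at 0 to 42 counts in a knockout library. Marco, Siglec1, Cx3cr1 and Gas6, also untested, did not. Spp1, the osteopontin gene, averaged 2657 ± 378 CPM in knockout and 3391 ± 574 CPM in wild type (SD, n = 3 each, here and below). Cd68, a lysosomal membrane gene, averaged 348 ± 24.9 CPM in knockout and 308 ± 26.5 CPM in wild type. Csf1r, the receptor of the macrophage growth factor M-CSF, averaged 206 ± 21.7 CPM in knockout and 178 ± 12.2 CPM in wild type. Its lowest knockout library, at 190.2 CPM, was narrowly above its highest wild-type library, at 188.1 CPM. It was the 1 of the 16 tested markers with every knockout library above every wild-type library, against 6.12% of all tested genes. Together the list summed to 2936 to 3703 CPM in knockout and 3353 to 4525 CPM in wild type, most of it Spp1. Of the 16 tested markers 11 had a log2 fold change above 0, which Spp1 had not. Folr2 and Timd4, markers of resident macrophages, had 0 counts in all 6 libraries.

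Lower macrophage genes were mixed. C3ar1, the receptor of complement fragment C3a, was at 1.54, 3.79 and 4.15 CPM in knockout and 1.5, 0.708 and 1.83 CPM in wild type (log2 fold change 1.23, SE 0.48, edgeR adjusted p = 0.78). Lyve1, a hyaluronan receptor of lymphatic vessels and resident macrophages, was at 0.189, 0.123 and 0.349 CPM in knockout and 4.49, 1.06 and 0.675 CPM in wild type (log2 fold change -3.24, SE 0.80, edgeR adjusted p = 0.38). Lyve1 thus had the opposite direction to the 10 genes, with no overlap. Stab1, a scavenger receptor gene, averaged 7.36 ± 2.20 CPM in knockout and 4.32 ± 1.58 CPM in wild type, and its lowest knockout library was replicate 2.

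The 10 monocyte markers had a median log2 fold change of 0.42 over the 8 tested, with 0 called and 4 in the knockout order of the 10 genes. Ccr2, the chemokine receptor of inflammatory monocytes, was at 0.283, 2.65 and 2.05 CPM in knockout and 0.15, 0.483 and 0.611 CPM in wild type (edgeR adjusted p = 0.79). Its pattern was that of Mrc1: knockout replicate 1 lay among the wild-type libraries and the others above them. Vcan, a proteoglycan gene, was at 0.314, 2.44 and 1.79 CPM in knockout and 0.674, 0.0322 and 0.0643 CPM in wild type (edgeR adjusted p = 0.79). F10, the clotting factor X gene, was more abundant, at 212 ± 11.6 CPM in knockout and 157 ± 8.29 CPM in wild type (log2 fold change 0.43, SE 0.11, edgeR adjusted p = 0.44). Treml4 was at 83.2 ± 10.6 CPM in knockout and 63.0 ± 1.78 CPM in wild type, and Plac8 at 126 ± 1.80 CPM in knockout and 120 ± 35.6 CPM in wild type. The list summed to 429 to 478 CPM in knockout and 343 to 398 CPM in wild type.

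Dendritic cell markers had a median log2 fold change of 0.26 over the 7 tested of 10, with 0 called. Ccr7, which guides dendritic cells to lymph nodes, was at 1.57, 6.54 and 7.42 CPM in knockout and 1.24, 0.451 and 1.48 CPM in wild type (log2 fold change 2.29, SE 0.60, edgeR adjusted p = 0.46), with no overlap. Zbtb46, a transcription factor of classical dendritic cells, averaged 0.186 ± 0.251 CPM in knockout and 0.922 ± 0.220 CPM in wild type. H2-Ab1, a class II antigen presentation gene, was at 24.0, 59.2 and 44.1 CPM in knockout and 18.5, 21.7 and 40.5 CPM in wild type. Its ranks were those of Fn1 in both genotypes. Siglech had 0 counts in all 6 libraries, and the list summed to 225 to 297 CPM in knockout and 184 to 252 CPM in wild type.

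**Figure D4:**
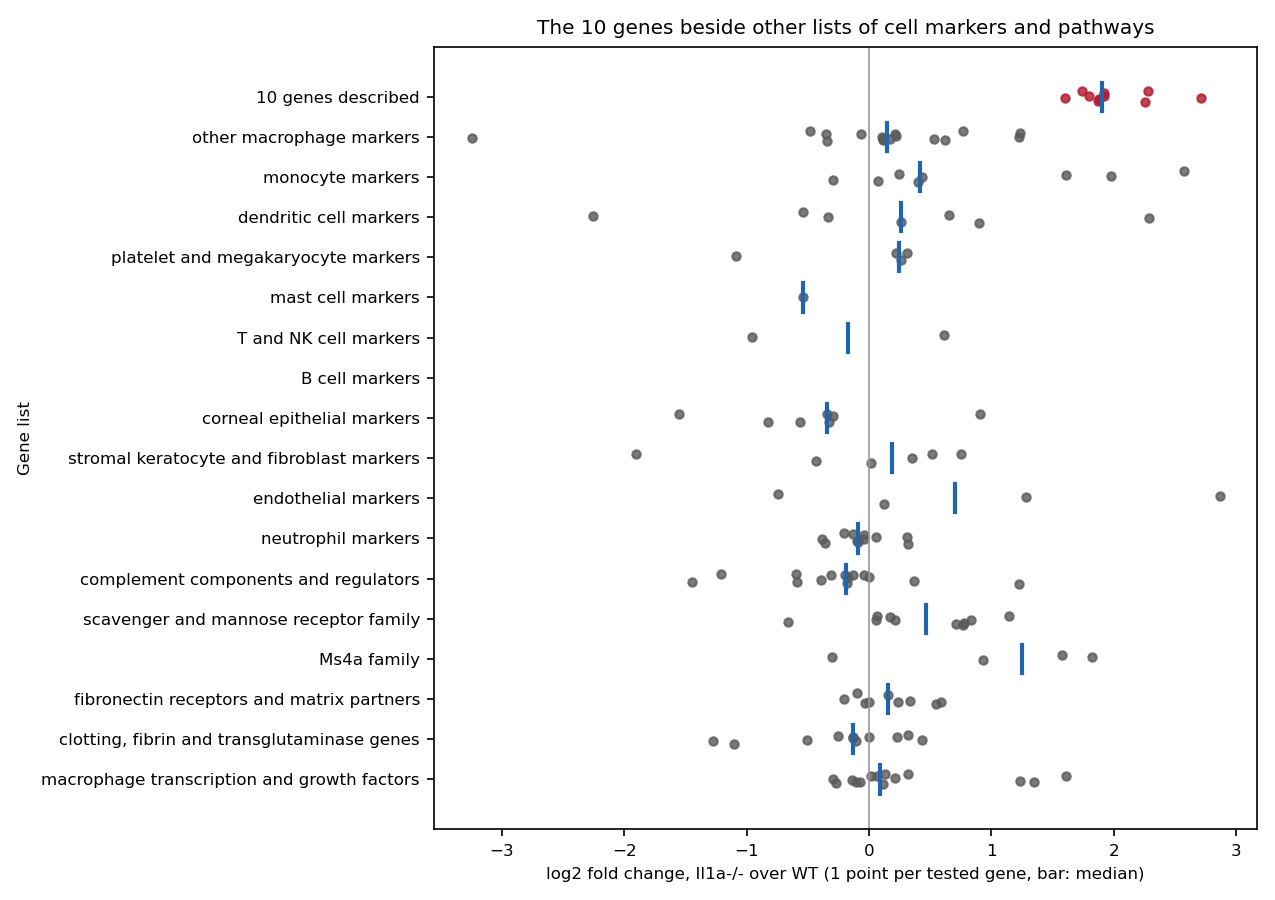
Log2 fold change, Il1a-/- over wild type, of each tested gene (points) of the 10 genes described (red) and of 17 other lists (grey), with the median as a blue bar. The 10 genes, which were picked for this contrast, lie between 1.60 and 2.72, the medians of the other lists run from -0.54 (mast cells, 1 tested gene) to 1.25 (Ms4a family, 4 tested genes), and the B cell list has no tested gene.

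The families around the 10 genes were set beside them. Of 15 other Ms4a genes 4 were tested and 0 called, with a median log2 fold change of 1.25. Ms4a4a had the knockout order of Ms4a6d but another order in wild type, at 2.17, 8.02 and 6.90 CPM in knockout (69, 260 and 158 counts) and 1.72, 1.90 and 1.19 CPM in wild type (46, 59 and 37 counts), with a log2 fold change of 1.82 (SE 0.46, edgeR adjusted p = 0.41). Ms4a6c was at 0.629, 0.987 and 0.917 CPM in knockout and 0.262, 0.419 and 0.161 CPM in wild type (edgeR adjusted p = 0.79). Ms4a6b averaged 0.638 ± 0.308 CPM in knockout and 0.329 ± 0.168 CPM in wild type, and Ms4a8a 1.51 ± 0.801 CPM in knockout and 1.86 ± 0.382 CPM in wild type. Ms4a6b, Ms4a6c and Ms4a6d resemble one another in sequence, so the split of reads between them is uncertain. Summed, the 15 gave 4.15, 15.1 and 11.3 CPM in knockout and 4.27, 4.67 and 4.60 CPM in wild type, so knockout replicate 1 lay below the wild-type libraries. Ms4a8a was at 0.597 CPM in that library and at 1.42 to 2.10 CPM in wild type. Of the 4 tested genes 2, Ms4a4a and Ms4a6c, had every knockout library above every wild-type library, against 6.12% of all tested genes. Ms4a6b and Ms4a8a overlapped.

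The other complement genes, 14 tested of 19, had a median log2 fold change of -0.19, and 0 were called. Serping1, the C1 inhibitor gene, averaged 0.627 ± 0.366 CPM in knockout and 1.73 ± 0.621 CPM in wild type (edgeR adjusted p = 0.75). Calr, whose product calreticulin binds C1q, averaged 207 ± 12.4 CPM in knockout and 272 ± 43.7 CPM in wild type (edgeR adjusted p = 0.70). Neither had the direction of C1qa, C1qb and C1qc. Of the scavenger and mannose receptor family, to which Mrc1 and Msr1 belong, 10 of 18 other genes were tested and 0 called (median log2 fold change 0.46). Ly75, an endocytic receptor of the mannose receptor family, averaged 22.4 ± 4.78 CPM in knockout and 12.6 ± 3.69 CPM in wild type (edgeR adjusted p = 0.57). Cxcl16, a transmembrane chemokine that binds oxidized lipoprotein, averaged 20.8 ± 4.27 CPM in knockout and 12.7 ± 2.61 CPM in wild type (edgeR adjusted p = 0.57). The lowest knockout value was above the highest wild-type value for both Ly75 and Cxcl16.

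Of 10 fibronectin receptors and matrix partners 9 were tested and 0 called (median log2 fold change 0.16). The receptor subunit gene Itgb1 averaged 190 ± 18.2 CPM in knockout and 150.5 ± 11.4 CPM in wild type (edgeR adjusted p = 0.75), and its partner Itga5 395 ± 49.4 CPM in knockout and 354 ± 56.9 CPM in wild type. Sdc4, a syndecan, was at 8.20, 22.9 and 14.0 CPM in knockout and 6.59, 13.3 and 10.9 CPM in wild type, in the knockout order of Fn1. Of 16 clotting, fibrin and transglutaminase genes 11 were tested and 0 called (median log2 fold change -0.13). F13b, which encodes the carrier subunit of factor XIII, and the fibrinogen genes Fga, Fgb and Fgg had 0 counts in all 6 libraries. So of the factor XIII subunits only the catalytic one, F13a1, had counts.

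Of 15 macrophage transcription and growth factor genes 14 were tested and 0 called (median 0.090). Irf8, a factor of monocyte and dendritic cell development, was at 0.503, 1.20 and 1.14 CPM in knockout and 0.0749, 0.386 and 0.450 CPM in wild type (edgeR adjusted p = 0.83), with no overlap. Nr1h3, a sterol-sensing nuclear receptor gene, was at 2.20, 1.11 and 2.66 CPM in knockout and 0.561, 1.19 and 0.579 CPM in wild type (edgeR adjusted p = 0.76). Nr1h3 thus had its highest knockout value in replicate 3, not in replicate 2.

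Among 5659 tested genes outside the 10 with a mean of at least 5 CPM, 17 (0.300%) had a Pearson r of at least 0.95 with the mean log2 CPM of the 10 genes over the 6 libraries. That mean was 1.10, 3.09 and 2.37 in knockout replicates 1, 2 and 3, against 0.139, 0.699 and 0.560 in wild-type replicates 1, 2 and 3. The median r over the 5659 genes was -0.067. The closest was Mmp14 (r = 0.999), a membrane-bound collagenase gene, at 15.4, 39.8 and 27.1 CPM in knockout (491, 1291 and 621 counts) and 10.5, 12.9 and 12.4 CPM in wild type (280, 400 and 387 counts). Mmp14 was not called (log2 fold change 1.20, edgeR adjusted p = 0.36), except by DESeq2, without a filter and without knockout replicate 1. Il6, the gene of interleukin 6, ranked 4 (r = 0.981), with 6.35, 12.4 and 9.69 CPM in knockout and 3.44, 5.60 and 4.63 CPM in wild type. The other six were Rabep1 (0.995), Ankrd37 (0.990), Riok2 (0.970), Cdc27 (0.967), Man2a1 (0.967) and Vps16 (0.964), and each of these had a log2 fold change of at most 0.39. They resemble the 10 genes in how the libraries are spaced, not in the size of the differences: Rabep1 ranged from 16.1 to 17.8 CPM in knockout and from 15.2 to 15.4 CPM in wild type. With genotype means subtracted, 2 of the 8 genes stayed among the 8 closest. The r values describe these 6 libraries and have no p.

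RefSeq start-site windows (GRCm38.p6, 250 bases before to 50 after the start) were available here for 6 of the 10 genes: C1qb, C1qc, F13a1, Mrc1, Ms4a7 and Pf4, in 8 windows. Those of C1qb and C1qc, neighbours on chromosome 4, of Pf4 and of Mrc1 are printed. These genes have the knockout order that all 10 share. In wild type C1qb and C1qc share one order, while Pf4 and Mrc1 each have another. All 8 windows were searched on both strands for GAGGAA, a core bound by the myeloid factor PU.1, and for TGANTCA, an AP-1 site. The capitals mark GAGGAA or its reverse complement. The windows are chr4:136886151-136886450 (minus strand), chr4:136892865-136893164 (minus), chr5:90772185-90772484 (plus) and chr2:14229164-14229463 (plus), each given 5′ to 3′.
C1qb: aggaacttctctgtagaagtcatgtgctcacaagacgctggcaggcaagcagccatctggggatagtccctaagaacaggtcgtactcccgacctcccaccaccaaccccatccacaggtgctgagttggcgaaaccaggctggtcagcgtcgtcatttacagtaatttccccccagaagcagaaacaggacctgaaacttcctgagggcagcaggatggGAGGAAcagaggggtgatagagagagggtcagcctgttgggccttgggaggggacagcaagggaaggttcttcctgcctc
C1qc: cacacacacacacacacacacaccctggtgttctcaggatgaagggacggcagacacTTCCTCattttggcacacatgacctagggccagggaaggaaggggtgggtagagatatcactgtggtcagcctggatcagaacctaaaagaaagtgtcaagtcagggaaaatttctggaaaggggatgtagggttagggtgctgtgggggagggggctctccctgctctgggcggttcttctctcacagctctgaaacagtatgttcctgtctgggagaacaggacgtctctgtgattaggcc
Pf4: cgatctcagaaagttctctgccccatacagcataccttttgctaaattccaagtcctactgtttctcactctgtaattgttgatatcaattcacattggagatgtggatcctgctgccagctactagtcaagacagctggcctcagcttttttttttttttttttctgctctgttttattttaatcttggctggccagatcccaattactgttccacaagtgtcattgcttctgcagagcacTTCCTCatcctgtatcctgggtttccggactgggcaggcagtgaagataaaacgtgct
Mrc1: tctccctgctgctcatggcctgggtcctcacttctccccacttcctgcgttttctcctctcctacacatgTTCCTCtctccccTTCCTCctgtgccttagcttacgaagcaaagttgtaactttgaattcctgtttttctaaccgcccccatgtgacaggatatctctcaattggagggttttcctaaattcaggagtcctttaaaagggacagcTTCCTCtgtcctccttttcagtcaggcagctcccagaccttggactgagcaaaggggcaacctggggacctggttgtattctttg

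GAGGAA was found in 7 of the 8 windows and in all 6 genes, in 3 places for Mrc1 and in 1 each for C1qb, C1qc and Pf4, and it occurs in 28.3% of 32851 RefSeq windows of this length. TGANTCA was found in 1 of the windows of Ms4a7 and in no other of the 8 (7.81% of all windows). No 2 matches overlapped. A match is a string of letters and shows no binding.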

How the data were processed

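The authors deposited whole-number counts per gene for each library, not normalized, in an unstranded column and in separate columns for the read strands. Per the labels' protocols, libraries were made with a SMART-seq v4 low-input kit, which does not mark strand, so the unstranded column was used, and genes that overlap on opposite strands cannot be told apart. The submitters' processing notes list STAR 2.7.8a, Trimmomatic 0.39 and FastQC 0.11.9, with GRCm38 and mm10 as builds. Symbols and exon lengths came from GENCODE M21, which held 54809 of the 54838 genes; the authors' annotation release is not stated.

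Filtering by expression within group left 11924 genes. TMM scaling and the robust quasi-likelihood test of edgeR 4.0.16 in R 4.3.3 compared knockout with wild type, with Benjamini-Hochberg adjustment over all tested genes and a threshold of 0.05. Log2 CPM used a prior count of 3. Intervals (95%) are exact for counts and their ratios and Wilson for shares. The fit was tested on simulated data, and DESeq2 1.42.0 was an alternative. The labels name no animals, so p-values measure only how these libraries vary, and that spread may be technical.

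The 10 genes and the other 17 lists were chosen with earlier results of these data known. Genes named beside them were up to 4 tested genes with the lowest p in each list, 3 by abundance in each marker list, and the 8 closest in pattern; genes at or near 0 counts and Treml1 and Itga2b were named after their values were seen. Of 3 promoter motifs searched, 1 is not reported here, nor is 1 gene of the lists.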

Additional observations from a re-analysis of the deposited data

How the results depend on the processing

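The log2 fold change of each of the 10 genes kept its sign under each alternative run for it, with shifts smaller than 1 SD between replicates. The widest range was 1.86 to 3.62, for Mrc1. The log2 ratio of their summed CPM ranged from 1.46 to 2.38 with 1 library left out and from 2.01 to 2.07 under other scalings and with the strand columns summed. Under those scalings, an alternative chosen after seeing the data, the order of the knockout libraries held for 10 of 10 genes and the genotypes were apart for 8. They were apart for 8 to 10 with 1 library left out, also chosen after seeing the data. Fewer libraries make such separation easier for any gene, and the share of all tested genes is not given there. Nothing is read from that count.

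Of all tested genes 12 were called. The number was 185 without a filter, 21 with a filter at 5 CPM in 3 libraries (which kept 3 of the 10 genes), 69 with DESeq2, 20 with a replicate block and 7 to 24 with 1 library left out. Of the genes of the other lists, 0 in the edgeR test, it was 10 without a filter, 3 with DESeq2 and 0 to 2 with 1 library left out (Mmp8 and Ms4a4a without knockout replicate 1). Of the 10 genes edgeR called 0, and the number was 8 without a filter, 5 with DESeq2, 2 with the block and 0 to 3 with 1 library left out (3 without knockout replicate 1). The replicate numbers were not shown to pair the libraries: same-numbered libraries' deviations from their genotype means correlated at 0.14, 0.0572 and 0.00338 over tested genes, and knockout replicate 2 correlated best with wild-type replicate 3 (0.145). The cause of these differences was not tested. For Ms4a7, at 4 to 41 counts a library, ratios up to 2.15 between libraries of a genotype were within counting error.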
